A study of Mus musculus with 13 samples.

Results

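Genomic imprinting silences a gene on the chromosome copy inherited from a given parent, so that the other copy supplies all or most of the transcript. Several imprinted genes set growth before and soon after birth, paternally expressed ones mostly promoting it and maternally expressed ones mostly restraining it, and many are known to decline after birth in mouse organs, the kidney among them. The 10 imprinted growth genes H19, Igf2, Cdkn1c, Dlk1, Meg3, Peg3, Plagl1, Grb10, Mest and Igf2r were read by gene name from a kidney RNA-seq table of 28183 genes. Each was found in 1 row, and each passed the filter on low values (2 or more libraries at 1 or above), as did 14637 genes in all. A table of 2016 genes from mIMCD-3 cells held 1 of them, Plagl1.

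The kidneys came from C57BL/6 mice with floxed Pkd1 or Pkd2, the genes mutated in autosomal dominant polycystic kidney disease. Pkd1 knockouts (KSP/Cre+;Pkd1f/f) and their controls (KSP/Cre-;Pkd1f/f) were at postnatal day 10, and Pkd2 knockouts (Pkhd1/Cre+;Pkd2f/f) and their controls (Pkhd1/Cre-;Pkd2f/f) at postnatal day 20, with 2 libraries in each of the 4 groups. Every group carries floxed alleles, the control groups included. KSP/Cre is driven by the promoter of kidney-specific cadherin and acts in tubule epithelium, and Pkhd1/Cre acts mainly in collecting ducts, so that vessels, stroma and podocytes keep the floxed gene in the knockouts. Sample titles of the Pkd2 knockouts carry the tag (WT), while their genotype and description name Cre and a knockout, and they were grouped by the genotype. The mIMCD-3 cells, a mouse line from the inner medullary collecting duct, received 10 nM of a gapmer, an antisense oligonucleotide that directs cleavage of its target RNA, for 48 h. The gapmer was aimed at the long noncoding RNA Hoxb3os in 3 libraries and was a negative control in 2.

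Levels below are the authors' deposited values, scaled CPM. A change is the log2 fold change of log2(value + 1) ± SE from limma, which understates the change of low genes, with a Benjamini-Hochberg adjusted p over all 14637 genes, and a gene was called at an adjusted p below 0.05. The kidney libraries held 30.7 to 94.4 M reads. The targeted genes did not check the labels, since each value sums over exons outside the floxed part and over cells that Cre does not reach. Pkd1 was at 24.1 and 26.0 in Pkd1 knockouts and at 31.1 and 22.7 in their controls (-0.08 ± 0.19, limma adjusted p = 0.82). Pkd2 was at 50.7 and 53.3 in Pkd2 knockouts and at 69.0 and 61.2 in their controls (-0.32 ± 0.21, limma adjusted p = 0.33). Summed Y-linked genes ran from 0.0221 to 183 between libraries and were not balanced between groups. Both day 10 controls (155 and 10.4) stood above both day 20 controls (0.104 and 0.0221). Pkd1 knockouts were at 149 and 183, and Pkd2 knockouts at 169 (replicate 1) and 0.0462 (replicate 2). Replicates differed most within the Pkd2 knockouts and the Pkd1 controls, so a Y-linked term in the fit rests mainly on those libraries. Labels do not say that replicates were separate animals, so the p-values reflect library-to-library spread alone, possibly technical in part. The 2 Pkd2 knockouts differed so far in Y-linked level that they were not repeats of 1 RNA sample. The same holds for the 2 Pkd1 controls, and the other 2 groups leave it unknown. In bulk kidney RNA, fewer cells of a type and less RNA per cell cannot be told apart.

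More of the 10 genes were called between the 2 control groups than in the knockouts of either model. The control groups differ in age and in floxed gene, so age and line cannot be told apart. H19, Igf2, Cdkn1c, Mest and Grb10 were lower in day 20 controls than in day 10 controls, by 2.27-fold (Grb10) to 17.3-fold (H19) between means. Cdkn1c and Igf2 were lower in the knockouts of both models, Cdkn1c by 7.19-fold and 3.19-fold and Igf2 by 2.26-fold and 1.92-fold in the Pkd1 and Pkd2 models. Mest was 1.58-fold higher in Pkd2 knockouts. In Pkd1 knockouts 2 of the 10 genes were called, both lower, where 10.6% of all genes tested were called (5.48% lower and 5.11% higher). In Pkd2 knockouts 3 of 10 were called, 1 higher and 2 lower, where 17.7% of all genes were called (9.54% higher and 8.13% lower). Between the control groups 5 of 10 were called, all lower at day 20, where 12.3% of all genes were called (7.26% lower and 5.04% higher). The median log2 change of the 10 genes was -0.06 in Pkd1 knockouts, -0.33 in Pkd2 knockouts and -1.12 with age, and that of all genes tested lay between -0.01 and 0 in each of these comparisons. In the authors' deposited table, 3 of the 10 had an adjusted p below 0.05 for Pkd1 (Igf2, Cdkn1c and Dlk1), where 7.94% of all genes did, and 2 of 10 for Pkd2 (Cdkn1c and Dlk1), where 10.3% did. The control libraries serve both a knockout comparison and the age comparison, so these counts are not independent.

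**Figure D1:**
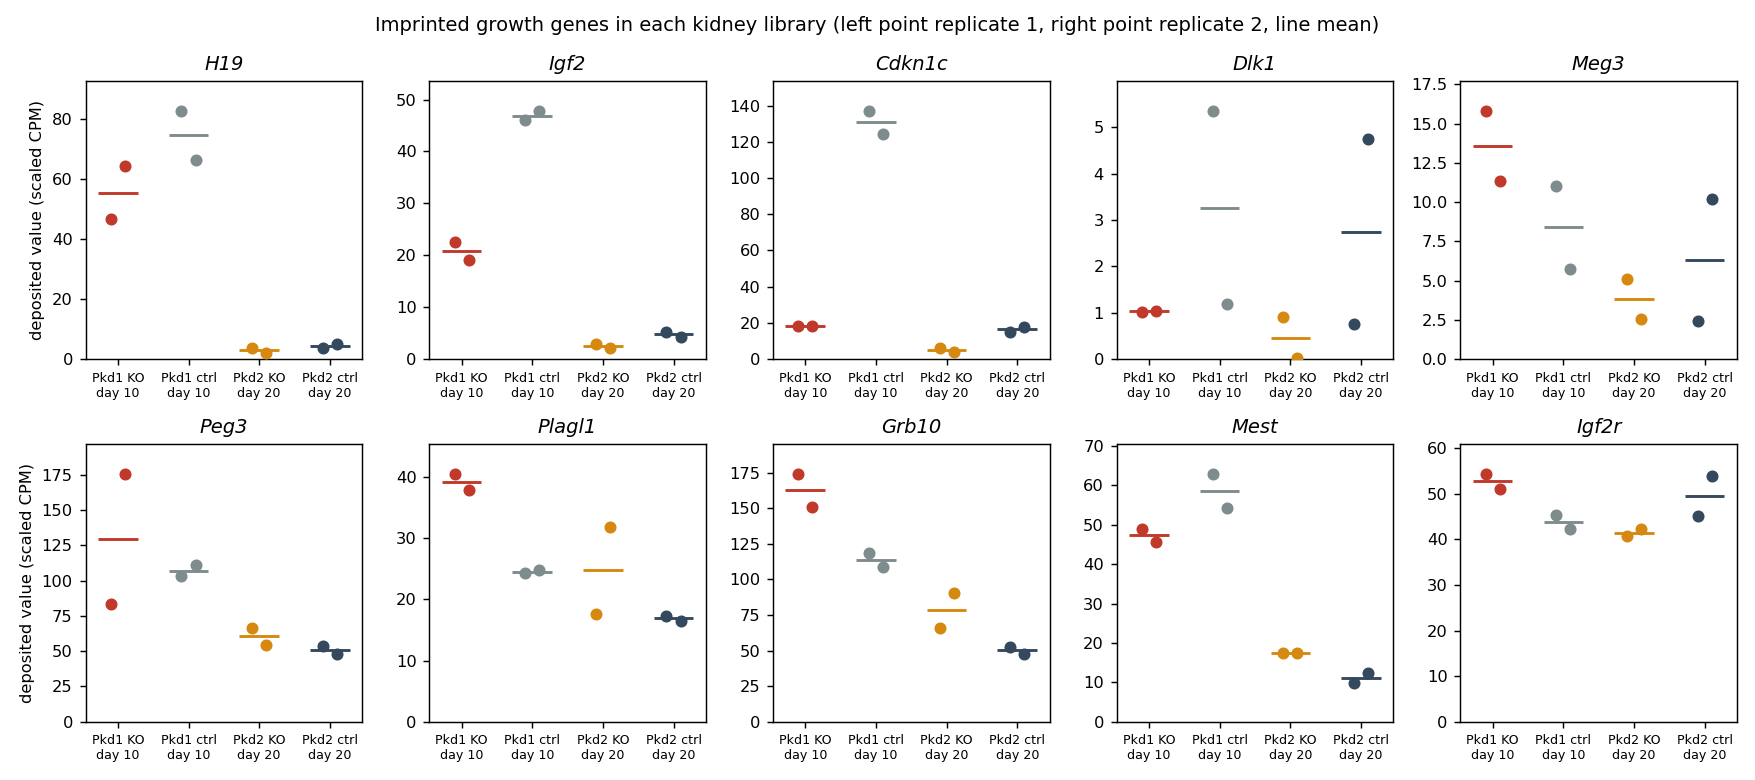
Deposited value (scaled CPM, linear axis from 0) of each of the 10 genes in each of the 8 kidney libraries, with points for replicates and a line for the group mean. H19, Igf2, Cdkn1c and Mest are low in all 4 day 20 libraries, and Cdkn1c is at 18.2 in both Pkd1 knockouts against 137 and 124 in their controls.

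H19 and Igf2 are neighbours on chromosome 7 and share enhancers and an imprinting control region, with Igf2 transcribed from the paternal copy and H19 from the maternal one. H19 (ENSMUSG00000000031.13, chr7:142575529-142578143, minus strand, mm10, lincRNA) is a noncoding RNA whose exon holds the precursor of the microRNA miR-675. Igf2 (ENSMUSG00000048583.14, chr7:142650766-142666816, minus strand, protein coding) encodes insulin-like growth factor 2, a growth factor of the embryo that signals through the Igf1r and insulin receptors, and holds the miR-483 precursor outside its exons. Mest, described further on, holds miR-335 outside its exons. The mature microRNAs of these 3 hosts are given because they lie within the host genes. Meg3, described further on, also holds microRNAs in its exons, miR-1906 and miR-770, whose sequences are not printed. Of the microRNAs of the 3 hosts above, miR-675 alone lies in an exon, so that the exon values of Igf2 and Mest do not cover miR-483 and miR-335. The levels of the microRNAs themselves were not analysed here. Sequences are from RefSeq on GRCm38.p6, with the seed (bases 2 to 8) in capitals, and no seed was shared among them.
miR-675-5p: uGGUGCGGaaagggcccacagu
miR-675-3p: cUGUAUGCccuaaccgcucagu
miR-483-5p: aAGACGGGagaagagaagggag
miR-483-3p: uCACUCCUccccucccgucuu
miR-335-5p: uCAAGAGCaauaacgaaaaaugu
miR-335-3p: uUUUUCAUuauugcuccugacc

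H19 was at 3.64 and 5.01 in day 20 controls, against 82.7 and 66.4 in day 10 controls. Both older libraries lay far below both younger ones (-3.83 ± 0.27, limma adjusted p = 0.00032). In the knockouts H19 was at 46.5 and 64.4 in Pkd1 knockouts, against the 82.7 and 66.4 of their controls (-0.43 ± 0.27, limma adjusted p = 0.34). It was at 3.76 and 1.99 in Pkd2 knockouts, against 3.64 and 5.01 in their controls, where the groups overlapped (-0.49 ± 0.27, limma adjusted p = 0.25). Neither knockout difference passed the test. The Pkd2 difference passed with the Y-linked level as a term (-0.82, adjusted p = 0.046) and without knockout replicate 1 (-0.82, 0.0499), and was -0.15 without knockout replicate 2. Both day 10 groups, of the Pkd1 line, stood above both day 20 groups, of the Pkd2 line, and within day 20 the Pkd2 controls and knockouts overlapped.

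Igf2 followed the same order of groups with less scatter. Its values were 4.28 to 5.30 in day 20 controls and 46.0 to 47.8 in day 10 controls, 9.79-fold lower at day 20 between means (-3.05 ± 0.18, limma adjusted p = 0.0002). It also passed the test in both knockouts. It was at 22.5 and 19.05 in Pkd1 knockouts against 46.0 and 47.8 in their controls (-1.14 ± 0.18, limma adjusted p = 0.0066). In Pkd2 knockouts it was at 2.80 and 2.197 against 5.30 and 4.28 in their controls (-0.73 ± 0.18, limma adjusted p = 0.027). Knockouts lay below controls without overlap in both models, and all 4 group ranges were separate. The call in the Pkd1 model was lost without either control library (-1.17 and -1.11). That in the Pkd2 model was lost with the 4 Pkd2 libraries fitted alone (limma adjusted p = 0.074), with no filter (0.052) and with a replicate block (0.062). It was also lost without any single library of that model other than knockout replicate 1, the estimate lying between -0.85 and -0.60 in fits that leave out a library. In the authors' deposited table, Igf2 had an adjusted p of 0.0231 for Pkd1 and 0.11 for Pkd2. Igf2os, an antisense gene over 7124 bases of Igf2, was at 0.109 or less in every library, and the sources used here do not give whether counting used strand.

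Cdkn1c (ENSMUSG00000037664.10, chr7:143458350-143461050, minus strand, protein coding) encodes p57, a cyclin-dependent kinase inhibitor that stops cells in G1, is expressed from the maternal copy in the neighbouring Kcnq1 imprinted domain, and stays on in podocytes of the mature kidney. It had the smallest limma adjusted p of the 10 genes in the knockouts of both models. Its values were 18.2 and 18.2 in Pkd1 knockouts, against 137 and 124 in their controls (-2.78 ± 0.20, limma adjusted p = 0.00048). In Pkd2 knockouts they were 6.22 and 4.12, against 15.0 and 17.9 in their controls (-1.52 ± 0.20, limma adjusted p = 0.0024). With age they were 15.0 and 17.9 in day 20 controls, against 137 and 124 in day 10 controls (-2.92 ± 0.20, limma adjusted p = 0.00032). Cdkn1c averaged 18.2 in Pkd1 knockouts at day 10 and 16.5 in day 20 controls, a difference that was not tested. Each of these 3 calls was kept under every alternative run, leave-one-out fits included. The authors' deposited table gave adjusted p-values of 7.87e-11 for Pkd1 and 0.00028 for Pkd2, where that of Dlk1 was smaller (1.88e-07). The Pkd1 effect minus the Pkd2 effect was -1.26 ± 0.28, which did not pass over all genes (limma adjusted p = 0.17).

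Markers of cells that hold Cdkn1c or line the tubule also differed between the same libraries. The summed level of 10 podocyte markers was 252 and 248.9 in Pkd1 knockouts against 336 and 326 in their controls, and 170 and 183 in Pkd2 knockouts against 189 and 196 in their controls. Synpo weighs heavily in these sums and did not fall. It was at 129 and 100 against 117 and 99.3 in the Pkd1 model, and at 73.9 and 80.5 against 54.7 and 60.2 in the Pkd2 model. The median log2 change of the 10 markers was -0.83 in Pkd1 knockouts and -0.31 in Pkd2 knockouts. In Pkd1 knockouts 6 of the 10 podocyte markers fell and 1 rose, with Nphs1, the slit-diaphragm protein nephrin, at -1.57 ± 0.19 (limma adjusted p = 0.0028). In Pkd2 knockouts 3 fell and 1 rose, and with age 7 fell. The marker that rose was Cdh3 in both models (2.01 ± 0.28 in Pkd1 and 2.21 ± 0.28 in Pkd2 knockouts). Summed endothelial markers were 374 and 446 in Pkd1 knockouts against 629 and 545 in their controls, where 4 of 10 fell, and 514 and 382 in Pkd2 knockouts against 599 and 520 in their controls, where 1 fell. The 10 proximal tubule markers summed to 846 and 1074 in Pkd1 knockouts against 2957 and 3292 in their controls, and to 3500 and 1747 in Pkd2 knockouts against 6335 and 6752 in theirs. None of the podocyte markers was at 0 in any library. Their part in the change of Cdkn1c was not tested.

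The cell cycle partners of p57 were read from a list of cyclins, kinases and inhibitors. Of 12 listed cyclins, kinases and inhibitors, 0 were called in Pkd1 knockouts by limma. In Pkd2 knockouts 4 rose and 0 fell, namely the inhibitor Cdkn1a (1.198 ± 0.20), the cyclin Ccna2 (1.14 ± 0.24) and the kinases Cdk6 (0.84 ± 0.18) and Cdk4 (0.63 ± 0.17). With age 7 fell and 0 rose, Ccna2 (-1.85 ± 0.24), Cdk4 (-1.25 ± 0.17), Cdkn1a (-1.43 ± 0.20) and Ccnd2 (-1.54 ± 0.22) having the smallest adjusted p. Of 10 mitosis genes, 10 rose in Pkd2 knockouts, 1 rose in Pkd1 knockouts and 10 fell with age. The difference between the models passed the limma test for 0 of the 12 cell cycle and 0 of the 10 mitosis genes.

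**Figure D2:**
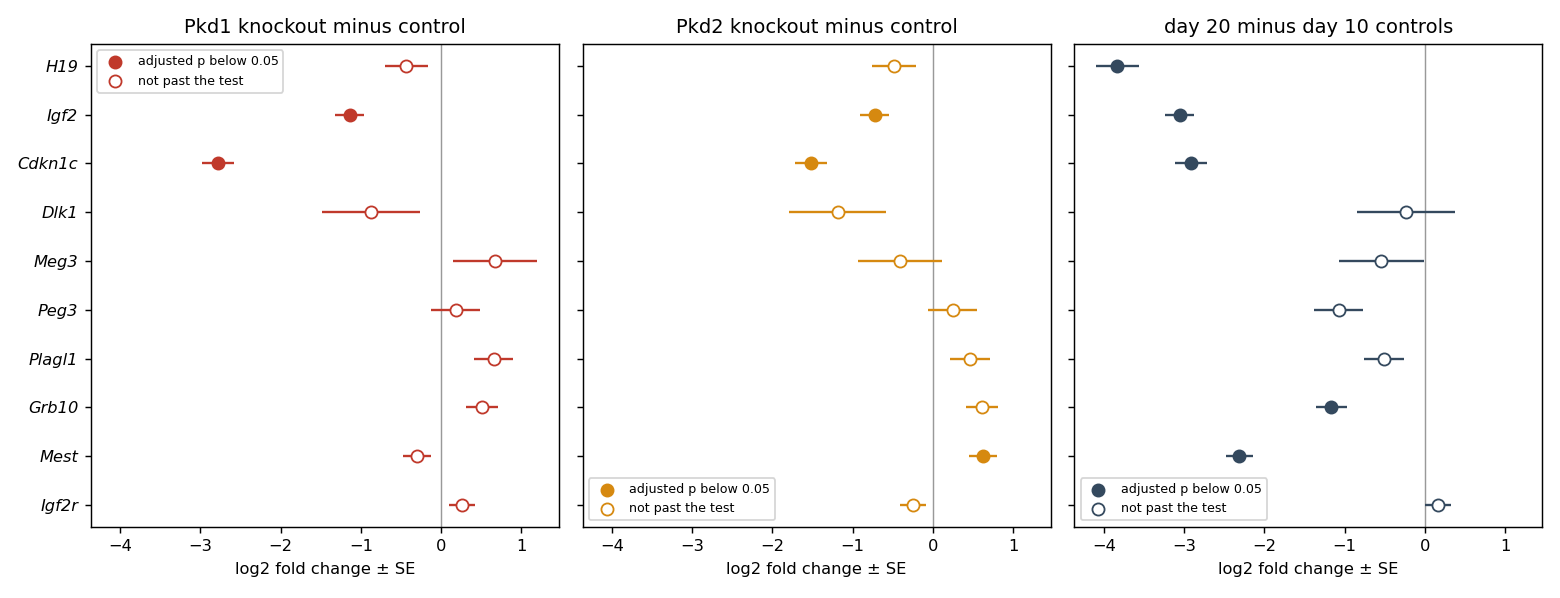
Log2 fold change ± SE (limma, 2 libraries a group) of each gene in Pkd1 knockouts against controls, Pkd2 knockouts against controls and day 20 against day 10 controls, filled where the adjusted p was below 0.05. Igf2 and Cdkn1c are filled on the negative side in all 3 panels, Mest is filled on the positive side in the Pkd2 panel and on the negative side in the age panel, and Dlk1 and Meg3 have the widest errors.

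Mest (ENSMUSG00000051855.13, chr6:30723547-30748465, plus strand, protein coding) is a paternally expressed gene for a hydrolase-like protein of the endoplasmic reticulum, high in embryonic mesoderm. It was at 9.80 and 12.3 in day 20 controls, against 63.0 and 54.2 in day 10 controls (-2.31 ± 0.17, limma adjusted p = 0.00035). In Pkd2 knockouts it was at 17.6 and 17.3, above both of their controls at 9.80 and 12.3 (0.63 ± 0.17, limma adjusted p = 0.036). In Pkd1 knockouts it was at 48.99 and 45.7, below both of their controls at 63.0 and 54.2, a difference that did not pass the test (-0.30 ± 0.17, limma adjusted p = 0.30). The rise in Pkd2 knockouts was lost without any single library of that model, the estimate lying between 0.48 and 0.77. It was also lost with the 4 libraries fitted alone (limma adjusted p = 0.084), with no filter (0.053) and with a replicate block. With the Y-linked level as a term it was lost too (0.067), and the authors' deposited table gave an adjusted p of 0.32. Stromal and pericyte markers, of cells of mesodermal origin, summed to 1450 and 1670 in Pkd2 knockouts against 781 and 825 in their controls, where 3 of 10 rose and 0 fell. They summed to 2155 and 1795 in Pkd1 knockouts against 1542 and 1082 in their controls, where 1 rose and 0 fell. Collagen genes weigh heavily in these sums, Col3a1 being at 857 and 704 in Pkd1 knockouts against 571 and 353 in their controls. Pdgfra was lower there, at 98.3 and 123 against 169 and 144. The median log2 change of the 10 markers was 0.60 in Pkd2 knockouts and -0.24 in Pkd1 knockouts. With age 4 fell and 0 rose, and none of the 10 was at 0 in any library. Their part in the values of Mest was not tested. Copg2, which runs on the other strand and overlaps the last 912 bases of Mest, ranged from 24.1 to 31.9 over all 8 libraries.

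Grb10 (ENSMUSG00000020176.15, chr11:11930508-12038683, minus strand, protein coding) encodes an adaptor that restrains signalling of the insulin and insulin-like growth factor receptors, and is maternally expressed outside the brain. It was at 52.7 and 47.9 in day 20 controls, against 119 and 109 in day 10 controls (-1.16 ± 0.20, limma adjusted p = 0.0074). That call was lost in 3 of the 4 fits that leave out a control library (adjusted p = 0.058 to 0.077) and kept in the fourth, without Pkd1 control replicate 2 (0.040). In the knockouts Grb10 was at 174 and 151 in the Pkd1 model against 119 and 109 in controls (0.51 ± 0.20, limma adjusted p = 0.14). It was at 66.2 and 90.2 in Pkd2 knockouts against 52.7 and 47.9 in their controls (0.61 ± 0.20, limma adjusted p = 0.065). Knockout libraries stood above control libraries in both models without a call. The Pkd2 difference passed with DESeq2 on the recovered reads (adjusted p = 0.034), with quantile scaling (0.049) and with the mitochondrial and small structural RNA genes left out (0.039). It also passed with the Y-linked level as a term. In fits that leave out a library it lay between 0.39 and 0.83.

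Igf2r (ENSMUSG00000023830.11, chr17:12682406-12769664, minus strand, protein coding) encodes the receptor that takes Igf2 to the lysosome and also carries lysosomal enzymes, and is maternally expressed in mice. It was called in none of the comparisons by limma. It was at 45.1 and 53.8 in day 20 controls, against 45.4 and 42.2 in day 10 controls (0.17 ± 0.16, limma adjusted p = 0.56). In Pkd1 knockouts it was at 54.4 and 51.1, above the 45.4 and 42.2 of their controls (0.26 ± 0.16, limma adjusted p = 0.33). In Pkd2 knockouts it was at 40.8 and 42.2, below the 45.1 and 53.8 of their controls (-0.24 ± 0.16, limma adjusted p = 0.33). The antisense RNA Airn, which overlaps 28354 bases of Igf2r and silences it on the paternal copy, ranged from 1.04 to 2.10.

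Promoter windows of 250 bases before an annotated start were read for 8 of the 10 genes from RefSeq on GRCm38.p6. The 4 below are shown because Igf2, Mest and Grb10 fell together with age and Igf2r, printed for contrast, was not called. Capitals mark the GC box, GGGCGG on either strand with overlapping copies counted apart. It occurred in 8 of the 15 windows of these genes, in 5 of the 8 genes, and in 32.7% of 32851 windows of the same length. For Igf2, Grb10 and Mest, which have several windows, 1 window is printed that holds the box, chosen after the counts were seen. The 4 Igf2 windows held 0, 0, 1 and 2 copies, the 2 Grb10 windows 5 and 0, and the 3 Mest windows 1 each. Of the Mest windows, 2 nearly coincide (chr6:30737800-30738049 and chr6:30737803-30738052) and hold the same copy, so that the count of windows includes it 2 times. The Igf2 window with 1 copy lies wholly in annotated exon. The printed Igf2 window (chr7:142657497-142657746, minus strand) held 2 copies, that of Grb10 (chr11:12037421-12037670, minus strand) 5, that of Mest (chr6:30737800-30738049, plus strand) 1 and that of Igf2r (chr17:12769707-12769956, minus strand) 3. The box was found in genes that fell and also in Igf2r (3 copies) and Plagl1 (2 copies), which were not called with age. Igf2 and Grb10 also had windows without it. No window was read for H19 and Cdkn1c, which fell with age too. None of the 4 printed windows overlapped an annotated exon.
Igf2: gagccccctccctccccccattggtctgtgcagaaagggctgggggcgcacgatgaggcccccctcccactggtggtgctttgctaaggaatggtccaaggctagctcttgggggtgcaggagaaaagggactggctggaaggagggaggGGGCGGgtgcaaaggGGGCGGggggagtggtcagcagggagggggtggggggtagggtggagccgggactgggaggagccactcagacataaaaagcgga
Grb10: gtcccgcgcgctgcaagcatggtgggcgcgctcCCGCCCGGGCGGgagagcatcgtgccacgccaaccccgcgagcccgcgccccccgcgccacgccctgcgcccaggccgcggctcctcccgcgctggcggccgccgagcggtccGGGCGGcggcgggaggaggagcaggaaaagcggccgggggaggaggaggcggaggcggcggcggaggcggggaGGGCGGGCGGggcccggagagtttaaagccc
Mest: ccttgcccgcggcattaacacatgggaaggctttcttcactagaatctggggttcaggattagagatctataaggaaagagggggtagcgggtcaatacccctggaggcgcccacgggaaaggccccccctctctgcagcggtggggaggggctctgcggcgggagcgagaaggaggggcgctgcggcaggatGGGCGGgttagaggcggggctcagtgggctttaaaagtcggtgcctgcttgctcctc
Igf2r: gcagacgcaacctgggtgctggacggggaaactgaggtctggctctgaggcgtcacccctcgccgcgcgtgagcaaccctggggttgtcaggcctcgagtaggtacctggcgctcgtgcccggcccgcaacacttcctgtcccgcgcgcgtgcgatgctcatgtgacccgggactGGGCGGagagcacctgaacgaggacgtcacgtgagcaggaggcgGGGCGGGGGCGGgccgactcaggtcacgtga

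Plagl1 (ENSMUSG00000019817.16, chr10:13060504-13131694, plus strand, protein coding) encodes a zinc-finger transcription factor that, in mice, binds and activates other imprinted growth genes, and is paternally expressed. It was at 40.5 and 37.9 in Pkd1 knockouts, above both of their controls at 24.2 and 24.7 (0.66 ± 0.24, limma adjusted p = 0.12). In Pkd2 knockouts it was at 17.6 and 31.8, against 17.3 and 16.5 in their controls (0.46 ± 0.24, limma adjusted p = 0.22). Knockouts stood above controls in both models, with Pkd2 knockout replicate 1 (17.6) close to control replicate 1 (17.3). In day 20 controls it was at 17.3 and 16.5, below the 24.2 and 24.7 of day 10 controls (-0.51 ± 0.24, limma adjusted p = 0.22). With the Y-linked level as a term all 3 differences passed (adjusted p = 0.020, 0.026 and 0.043). The Pkd1 and age differences also passed with only the groups compared in the fit. In fits that leave out a library the Pkd2 difference lay between 0.05 and 0.87.

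Peg3 (ENSMUSG00000002265.13, chr7:6703892-6730421, minus strand, protein coding) encodes a large zinc-finger protein, paternally expressed, that acts on growth and maternal behaviour in mice. It was at 53.3 and 47.6 in day 20 controls, below the 103 and 111 of day 10 controls (-1.07 ± 0.31, limma adjusted p = 0.055). The age difference passed with DESeq2 on the recovered reads (adjusted p = 0.0059), with the 4 control libraries fitted alone (0.0019) and with quantile scaling (0.039). Peg3 was at 83.6 and 176 in Pkd1 knockouts, on both sides of the 103 and 111 of their controls (0.18 ± 0.31, limma adjusted p = 0.75). It was at 66.4 and 54.3 in Pkd2 knockouts, against 53.3 and 47.6 in their controls (0.25 ± 0.31, limma adjusted p = 0.61).

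Dlk1 and Meg3 lie side by side on chromosome 12. Dlk1 (ENSMUSG00000040856.15, chr12:109452823-109463336, plus strand, protein coding) encodes a paternally expressed membrane protein related to Notch ligands that marks fetal and progenitor cells. Meg3 (ENSMUSG00000021268.15, chr12:109541001-109571726, plus strand, lincRNA) is a maternally expressed noncoding RNA at the head of a long transcribed stretch that goes on into Rian and Mirg. Dlk1 was at 1.02 and 1.04 in Pkd1 knockouts, against 5.36 and 1.18 in their controls (-0.87 ± 0.61, limma adjusted p = 0.39). In Pkd2 knockouts it was at 0.897 and 0.0231, the lower value being 1 read, against 0.754 and 4.74 in their controls (-1.19 ± 0.61, limma adjusted p = 0.21). In each control pair a single library stood above its replicate, by 4.54-fold in the Pkd1 controls and 6.29-fold in the Pkd2 controls. Without Pkd1 control replicate 1 the Pkd1 difference was -0.10, and without Pkd2 control replicate 2 the Pkd2 difference was -0.33. The authors' deposited table gave Dlk1 an adjusted p of 0.00061 for Pkd1 and 1.88e-07 for Pkd2. With age its values overlapped, and the direction turned when either Pkd1 control replicate 1 or Pkd2 control replicate 1 was left out (0.54 and 0.63, against -0.23 ± 0.61 with all libraries).

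Meg3 was at 15.8 and 11.3 in Pkd1 knockouts, above the 11.0 and 5.75 of their controls, without a call (0.68 ± 0.53, limma adjusted p = 0.45). In Pkd2 knockouts it was at 5.13 and 2.54, against 2.43 and 10.2 in their controls (-0.41 ± 0.53, limma adjusted p = 0.63). The Pkd2 direction rested on 1 library, and without control replicate 2 the difference was 0.44. Between day 20 and day 10 controls the values overlapped (-0.54 ± 0.53, limma adjusted p = 0.57). Rian, the noncoding RNA downstream of Meg3, was at 17.97 and 10.8 in Pkd1 knockouts against 6.59 and 4.74 in their controls, all higher and not called (1.18 ± 0.39, limma adjusted p = 0.093).

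Pkd2 control replicate 2, where Dlk1 and Meg3 were high, also held transcripts of the adrenal gland, which expresses Dlk1 and sits on the kidney. The summed level of 8 adrenal markers was 149 in that library, 4.11 in Pkd2 control replicate 1, 0.477 and 0.809 in Pkd2 knockouts and 0.492 to 1.75 in the 4 Pkd1 libraries. Star, which brings cholesterol into steroid-making mitochondria, was at 35.9, the steroid enzyme Hsd3b1 at 63.5 and Cyp11b1 of the adrenal cortex at 9.68 there, and none of the 8 was at 0. Summed fat markers were highest there too, at 163, against 111.7 in the other Pkd2 control and 29.4 to 85.4 in the remaining libraries. The part of adrenal RNA in the values of Dlk1 and Meg3 was not tested. Pkd1 control replicate 1, with the highest Dlk1 at 5.36, had an adrenal sum of 0.492, with 2 of the 8 markers at 0.

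**Figure D3:**
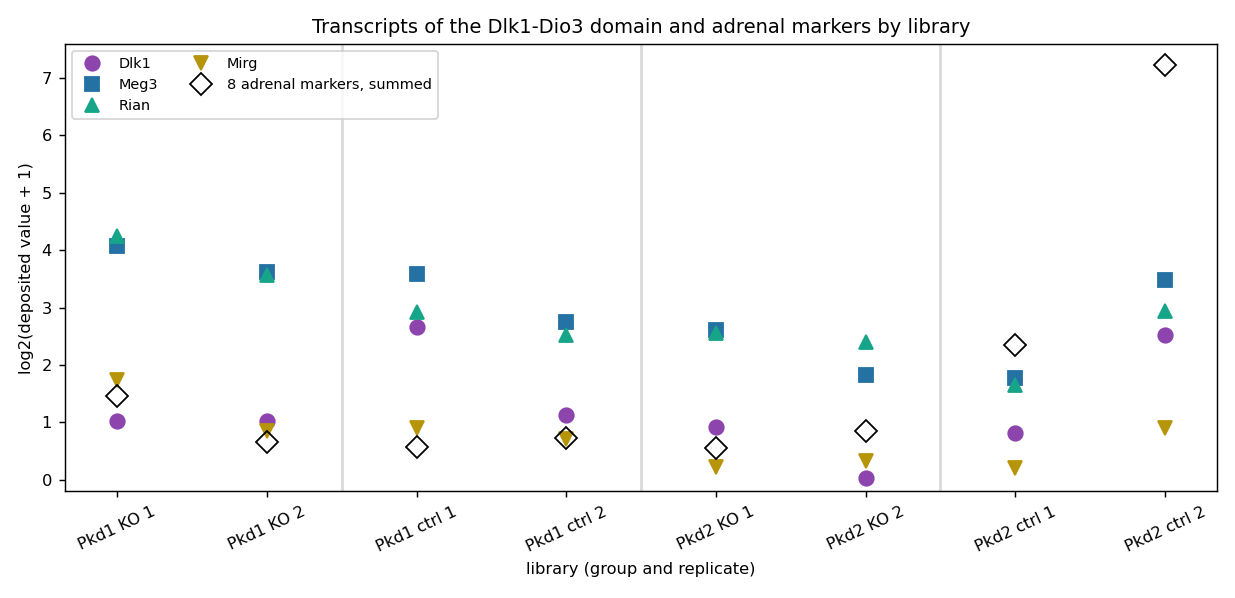
Level of Dlk1, Meg3, Rian and Mirg and the sum of 8 adrenal markers in each kidney library, as log2(deposited value + 1). The adrenal sum stands out in Pkd2 control replicate 2 (149), where Dlk1 is at 4.74 and Meg3 at 10.2, whereas the other library with high Dlk1, Pkd1 control replicate 1, has an adrenal sum of 0.492.

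Whether the 2 models differ was tested for each gene as the Pkd1 effect minus the Pkd2 effect, and 0 of 10 were called by limma, where 0.00683% of all genes tested (1 of 14637) were. At an unadjusted limma p below 0.05, 1207 of all genes passed, Cdkn1c and Mest among them. DESeq2 called 184 genes and edgeR 5 on the recovered reads, 0 of the 10 in either. The estimate was -0.92 ± 0.24 for Mest (limma adjusted p = 0.27), 0.51 ± 0.23 for Igf2r (0.63), 1.09 ± 0.74 for Meg3 (0.86) and -0.41 ± 0.26 for Igf2 (0.82). Estimates for the other 5 genes lay between -0.11 and 0.31, all with an adjusted p above that of Igf2.

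Counted without a test, the libraries of the groups were often apart, as they were for genes at large. In Pkd1 knockouts 4 of the 10 genes had both libraries above both controls and 5 had both below, where 29.1% and 29.2% of all genes did (58.3% either way). In Pkd2 knockouts the counts were 4 above and 3 below, where 31.9% and 30.9% of all genes were (62.7% either way). Between day 20 and day 10 controls 0 of 10 were above and 7 of 10 below, where 31.1% and 31.2% of all genes were (62.3% either way). Igf2, Cdkn1c, H19, Mest, Grb10, Peg3 and Plagl1 make up those 7, and Dlk1, Meg3 and Igf2r overlapped. The controls of the 2 ages also carry different floxed genes, so that age and line cannot be told apart. Their Y-linked level differs too, and with it as a term 6 of the 10 genes were called by limma, all lower at day 20.

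Per kilobase of annotated exon, which allows genes to be set beside each other, Cdkn1c was the most abundant of the 10 in both control groups, at 8.08 in day 20 controls and 64.1 in day 10 controls. H19 was the seventh in day 20 controls (1.76) and the second in day 10 controls (30.3). Igf2r was the third in day 20 controls (5.31) and the seventh in day 10 controls (4.71). Meg3 was the lowest in both, at 0.35 in day 20 controls and 0.464 in day 10 controls, with Dlk1 next at 0.486 and 0.578.

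The genes with the profile closest to each of the 10 were found by the mean absolute difference of centred log2(value + 1) over the 8 libraries, among genes with a mean value of at least 5. H19 was closest to Igf2 (0.51), then to the fetal plasma protein gene Afp (0.61) and Clec18a (0.64). Igf2 was closest to Clec18a (0.30) and Afp (0.30), and Cdkn1c to the histamine-making enzyme gene Hdc (0.53) and to Adamts17 (0.57). Meg3 was closest to Rian (0.28), its neighbour on chromosome 12. Grb10 was closest to Prx (0.091), the spindle checkpoint gene Mad2l1 (0.10) and the replication kinase Cdc7 (0.11), and Mest to Fat3 (0.17) and the growth factor gene Mdk (0.17). Plagl1 was closest to Rrp1b (0.098), Peg3 to the ribosomal protein gene Rplp0 (0.17), Igf2r to Glg1 (0.050) and Dlk1 to Sema6c (0.33). Genes that vary little have small distances to many others, so the distances are not comparable between members.

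Other genes of the same imprinted domains and other imprinted genes, 62 of which were tested, were called in both directions. In Pkd1 knockouts 1 rose and 4 fell, where 10.6% of all genes tested were called. In Pkd2 knockouts 10 rose and 5 fell, where 17.7% of all genes were called. Between day 20 and day 10 controls 2 rose and 10 fell, where 12.3% of all genes were called. The medians of the log2 changes of these 62 genes were 0.02, 0.01 and -0.04. In the domain of H19 and Igf2, Lsp1, a leukocyte actin-binding protein, was at 35.0 and 36.6 in Pkd2 knockouts against 11.3 and 15.7 in their controls (1.36 ± 0.18, limma adjusted p = 0.0026). In the domain of Cdkn1c, the transporter gene Slc22a18 was at 11.1 and 11.4 in Pkd1 knockouts against 55.0 and 43.8 in their controls (-2.03 ± 0.30, limma adjusted p = 0.0051). It fell in Pkd2 knockouts too (-1.63 ± 0.30) and rose with age (1.35 ± 0.30), opposite to Cdkn1c. In the Grb10 domain, Ikzf1, a transcription factor of lymphocytes, rose in Pkd2 knockouts (1.29 ± 0.20, limma adjusted p = 0.0043). Kcnq1ot1, the antisense RNA that silences the paternal copy of the Cdkn1c domain, was called in no comparison by limma. In the Igf2r domain, Slc22a2, an organic cation transporter of the proximal tubule, fell in both knockouts, by 1.80 and 1.10 on the log2 scale in the Pkd1 and Pkd2 models, as did 10 and 9 of the 10 proximal tubule markers.

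Outside the domains, Slc38a4, an amino acid transporter expressed from the paternal copy, rose in both knockouts (2.19 ± 0.17 in the Pkd1 and 1.54 ± 0.17 in the Pkd2 model, limma adjusted p = 0.00048 and 0.0010) and fell with age (-0.89 ± 0.17, adjusted p = 0.011). It averaged 29.2 in Pkd1 knockouts against 5.61 in their controls, the largest rise among these genes in that model. Gatm, an enzyme of creatine synthesis in the proximal tubule, fell by 1.92 in Pkd1 and 1.85 in Pkd2 knockouts. Sgce (1.196 ± 0.19) and the zinc-finger gene Zfp57 (1.13 ± 0.21), which guards imprints in the early embryo, rose in Pkd2 knockouts. With age Nnat fell by 2.85, Zfp57 by 1.56 and Ndn by 1.201 on the log2 scale (limma adjusted p = 0.0094, 0.0030 and 0.011).

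**Figure D4:**
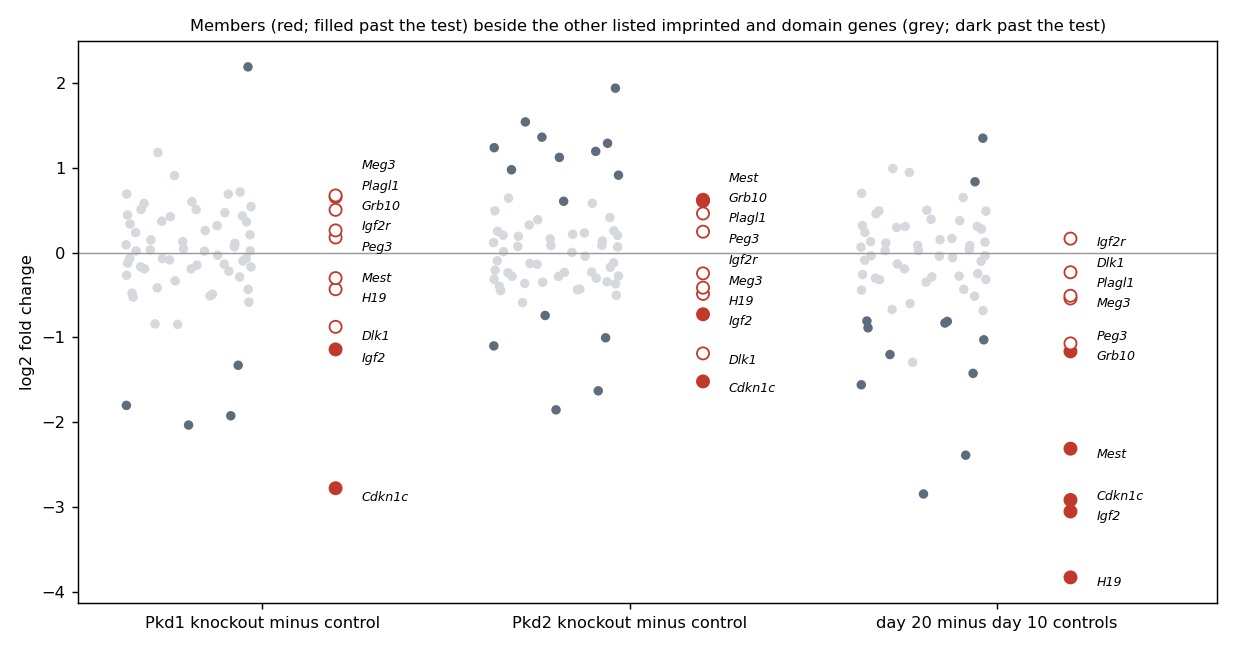
Log2 fold change of the 10 genes (red, filled where called, with names) beside 62 other imprinted and domain genes (grey, dark where called) in the 3 comparisons. Cdkn1c, at -2.78, lies below every grey gene in the Pkd1 column, and H19 (-3.83), Igf2 (-3.05) and Cdkn1c (-2.92) lie below every grey gene in the age column.

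The insulin-like growth factor system, to which Igf2, Igf2r and Grb10 belong, changed in both directions. Of 23 other listed genes, 5 rose and 4 fell in Pkd1 knockouts, 4 rose and 5 fell in Pkd2 knockouts, and 0 rose and 5 fell with age. Igfbp2, a binding protein that holds the growth factors in the extracellular space, averaged 104 in Pkd1 knockouts against 24.6 in their controls (2.08 ± 0.32, limma adjusted p = 0.0065) and 45.5 in Pkd2 knockouts against 6.10 in theirs (2.69 ± 0.32, adjusted p = 0.0016). Igf1, the postnatal growth factor, fell in Pkd1 knockouts (-1.39 ± 0.25, limma adjusted p = 0.010) and in Pkd2 knockouts (-0.89 ± 0.25, limma adjusted p = 0.039). The insulin receptor-related receptor Insrr fell in both models (-2.00 ± 0.23 and -1.22 ± 0.23), and Igfals, which stabilises circulating complexes of the growth factors, fell in Pkd1 knockouts (-1.46 ± 0.23). The binding protein Igfbp5 fell in Pkd2 knockouts (-1.09 ± 0.24). Igf2bp1, Igf2bp2 and Igf2bp3, which bind Igf2 mRNA, fell with age by 1.61, 1.44 and 1.32 on the log2 scale, as did Pappa2, a protease of the binding proteins, by 2.03. Igf2bp2 rose in Pkd2 knockouts (0.89 ± 0.20). Of 11 tested genes of the Notch pathway, to which Dlk1 is related, 1 was called, Heyl, which fell with age (-1.12 ± 0.22, limma adjusted p = 0.014).

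In the mIMCD-3 cells, Plagl1 was at 117, 98.7 and 141 with the Hoxb3os gapmer, against 185 and 177 with the control gapmer. All 3 treated libraries lay below both controls (119 ± 21.3 and 181 ± 6.07, SD, n = 3 and 2), a log2 difference of -0.62 ± 0.15 in limma, and the authors' deposited table gives a moderated log2 fold change of -0.29 with an adjusted p of 0.020. That table lists genes below an adjusted p of 0.05 alone, 55.6% of them lower with the Hoxb3os gapmer, so most genes it lists share the direction of Plagl1. The other 9 genes were not analysed in these cells. Hoxb3os has 0 rows in the table used, so the values here do not show the knockdown named by the label. The labels give the gapmer sequence, shown because it names the site: it is complementary to transcripts of 1 gene, Hoxb3os on chromosome 11, and to 0 of the 25 annotated Plagl1 transcripts.
Hoxb3os gapmer: attactgcttcttcca

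Of the genes beside Plagl1 in the gapmer table, its neighbour Phactr2 was at 260, 212 and 259 with the Hoxb3os gapmer against 354 and 357 with the control gapmer (authors' deposited table, -0.35, adjusted p = 0.0016). Zfp57 was higher, at 869, 895 and 920 against 687 and 671 (authors' deposited table, 0.33, adjusted p = 5.72e-05). Of the insulin-like growth factor list, 7 of 23 genes were listed, 3 higher and 4 lower, with Igf2bp1 at 0.30 and Irs2, the insulin receptor substrate, at 0.31 in the authors' deposited table. Of the 12 cell cycle genes 5 were listed, 3 higher and 2 lower, with the cyclin partner Cdk6 at 0.22 and the inhibitor Cdkn1b at -0.17 in the authors' deposited table. In the kidneys, where Hoxb3os was at 0.712 and 0.593 in Pkd1 knockouts against 2.07 and 2.56 in their controls, Plagl1 stood higher in the knockouts than in the controls, and in the cells it was lower with the Hoxb3os gapmer. Neither the Hoxb3os (limma adjusted p = 0.062) nor the Plagl1 difference passed the test in Pkd1 knockouts.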

How the data were processed

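Kidney RNA was extracted with Trizol and made into TruSeq libraries, per the labels' protocols. For kidneys, STAR 2.4.2a, RSEM 1.2.22, Cufflinks 2.2.1 and FastQC 0.11.2 are named beside edgeR and mm10 in the submitters' processing notes, and for cells DESeq2 1.12.3, STAR 2.4.2a, Trimmomatic 0.32 and SAMtools 1.0 with GRCm38/mm10. The deposited kidney signal is an estimated CPM that the authors rescaled library by library, and the cell signal, as deposited, is a read count over a size factor. The authors also deposited log2 fold changes (control minus knockout in kidneys), p-values and a likelihood ratio score, which was not used. The cell table holds genes with an authors' adjusted p of at most 0.05.

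Kidney values were tested as log2(value + 1) with limma 3.58.1 in R 4.3.3, in 1 fit of 4 groups of 2 libraries, on genes at 1 or more in at least 2 libraries, with Benjamini-Hochberg adjustment. Low values stepped by whole reads (93.9% to 96.2% of values within 0.02 read), and edgeR 4.0.16 and DESeq2 1.42.0 were run on those reads as alternatives. The fitting steps were tested on simulated data. The members and lists were chosen with earlier results of these data known. All 10 genes are named. Of other lists, up to 4 called genes with the smallest adjusted p per comparison could be named. A gene that this rule would name is not reported here.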

Additional observations from a re-analysis of the deposited data

Results flagged for a closer look

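Mest and Igf2r were picked out because the knockout libraries of the Pkd1 and Pkd2 models lay on opposite sides of their own controls. For Mest, both Pkd1 knockouts (48.99 and 45.7) were below their controls (63.0 and 54.2), and both Pkd2 knockouts (17.6 and 17.3) were above theirs (9.80 and 12.3). The Pkd1 effect minus the Pkd2 effect was -0.924 on the log2 scale, and the test of that difference did not pass (limma adjusted p = 0.27). For Igf2r, both Pkd1 knockouts (54.4 and 51.1) were above their controls (45.4 and 42.2), and both Pkd2 knockouts (40.8 and 42.2) were below theirs (45.1 and 53.8). The difference was 0.507, and its test did not pass either (limma adjusted p = 0.63). Leaving out a library in turn, the difference lay between -1.07 and -0.78 for Mest and between 0.38 and 0.63 for Igf2r, and it passed in none of these fits. The models also differ in age, Cre line and floxed gene.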

How the results depend on the processing

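Among the settings other than leaving out a library, 363 values kept direction and side of the threshold, 7 lost a call, 14 gained one and 5 turned direction, and leaving out a library gave 168, 12, 3 and 17. The calls of Cdkn1c in the knockouts and with age were kept in all settings run. Members called in Pkd2 knockouts numbered 1 with no filter, 1 with only the groups compared, 1 with a replicate block and 5 with the Y-linked level as a term. Leaving out a library gave 1 to 2 members in Pkd1 knockouts, 1 to 5 in Pkd2 knockouts, 4 to 5 with age and 0 for the difference between models.

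Uncalled values that turned direction were H19 in the difference (-0.065 with mitochondrial and small RNA genes left out, -0.28 to 0.39 leaving out a library), Dlk1 with age (0.72 with the Y-linked term, -1.09 to 0.63) and in the difference (-0.54 to 1.17), Meg3 in Pkd2 knockouts (-1.27 to 0.44) and with age (0.13 with the Y-linked term, -1.39 to 0.31), Peg3 in Pkd1 knockouts (-0.35 to 0.71) and in the difference (0.021 with DESeq2 and 0.020 with edgeR, -0.60 to 0.46), and Plagl1 (-0.21 to 0.60) and Grb10 (-0.33 to 0.12) in the difference. The cause was not tested.

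Over all genes, calls in Pkd1 knockouts numbered 1550, against 790 with no filter, 2491 with the Y-linked term and 325 to 788 leaving out a library. In Pkd2 knockouts they numbered 2587, against 1379 with only the groups compared and 621 to 4253 leaving out a library. With age they numbered 1801, against 1077 with the Y-linked term, 3093 with only the groups compared and 403 to 780 leaving out a library. Leaving out mitochondrial and small RNA genes moved the median of all genes by -0.13 with age and gave 603 higher and 1540 lower, against 738 and 1063. In the difference, calls were 18 with those genes left out, 0 with no filter, 5 with a pseudocount of 0.1, 8 with quantile scaling, 6 with the Y-linked term and 0 to 26 leaving out a library.

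Replicate numbers did not pair the samples (correlation of deviations -0.378 in the Pkd1 and -0.049 in the Pkd2 model). A replicate block gave 1044, 1812, 846 and 0 calls in Pkd1 knockouts, Pkd2 knockouts, age and the difference, and a crossed block, chosen after seeing the data, gave 1962, 3123, 999 and 4. edgeR on the cell table was not run, since its reads could not be recovered. In the cells, Plagl1 lay between -0.75 and -0.49 leaving out a library. With 2 libraries a group, and Dlk1 at 1 read in a Pkd2 knockout, small changes of low genes were not detectable.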
